A study of Mus musculus with 14 samples.

Results

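The response of Il4ra fl/fl skin to MC903 was described from 5 of the 14 RNA libraries of the study, all of neck skin from mice labelled female. They were chosen by their labels alone. The group given MC903 held 3 libraries from C57BL/6J mice carrying floxed Il4ra alleles (Il4ra fl/fl, here fl/fl), 6 to 7 weeks old, without a Cre transgene in their label and without injections. MC903 is calcipotriol, a vitamin D analogue. It was put on the shaved neck at 1 nmol in 100 µL every day for 6 days. The group it was set against held 2 libraries of untreated skin from C57BL/6J wild-type mice aged 6 weeks. A further group given the same course of MC903, 3 libraries from wild-type mice aged 6 weeks that also received an isotype control antibody (20 µg per injection), was used for one comparison only. By the series' design text each library came from 1 mouse, but the names of the 2 untreated libraries differ only by a suffix, and whether 2 mice were sampled is not stated. Genotype and treatment changed together, so the floxed alleles and MC903 cannot be told apart here, nor can vehicle, which the sources used here do not state for untreated skin.

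Calcipotriol binds the vitamin D receptor, a nuclear receptor that pairs with the retinoid X receptors on DNA. In keratinocytes it switches on Cyp24a1, whose product breaks vitamin D down, and the cytokine gene Tslp, and repeated application gives a dermatitis that serves as a mouse model of atopic disease. Il4ra encodes the alpha chain shared by the receptors for IL-4 and IL-13. A floxed allele without Cre is built to leave the gene working.

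All values below are gene levels in CPM (counts scaled to library size, with TMM factors), which allow comparison of a gene between libraries but not of levels between genes. Tests were edgeR quasi-likelihood tests over 20939 genes with Benjamini-Hochberg adjustment, and "called", "rose" and "fell" stand for an adjusted p under 0.05. Log2 fold changes carry their SE. Where untreated libraries held 0 counts, a fold is a lower bound against a floor of 3 counts per library, 0.0622 CPM.

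Il4ra itself was transcribed in every library, at 214, 146 and 176 CPM in fl/fl libraries 1 to 3 and at 59.4 and 105 CPM in untreated libraries 1 and 2. The groups did not overlap, but the difference was not called (log2 1.12 ± 0.65, adjusted p = 0.37). Markers of epidermis were present in all 5 libraries labelled skin. Krt5 stood at 640 to 2641 CPM in fl/fl and at 1274 to 3743 CPM in untreated libraries, and Krt10 at 355 to 3756 and at 2890 to 8730 CPM.

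The fl/fl libraries also held RNA of other tissues, in unequal amounts. Total counts were 47.2 M, 48 M and 45.1 M in fl/fl and 55.3 M and 37.5 M in untreated libraries. The 18 skeletal muscle genes listed summed to 80612, 22675 and 16822 CPM in fl/fl and to 2779 and 19989 CPM in untreated libraries. Salivary gland genes summed to 1460, 21138 and 12.2 CPM in fl/fl, against 84.6 and 80.5 CPM. Of the 11 tested, 2 lay above both untreated libraries in every fl/fl library, as did 12.6% of all genes. The defining salivary gene Bpifa2 was at 733, 10950 and 0.118 CPM in fl/fl and at 0 in untreated skin. B cell genes summed to 2720, 547 and 6.94 CPM in fl/fl, against 160 and 187 CPM, and T cell genes to 2196, 477 and 109 CPM, against 368 and 257 CPM. The 4 stress keratins summed to 4948, 17990 and 42272 CPM in fl/fl, against 1709 and 675 CPM. Of the 3 fl/fl libraries, library 1 was highest for muscle and lymphocyte genes, library 2 for salivary genes, Krt5 and Krt10, and library 3 for the stress keratins. The early response gene Fos was at 43.4, 204 and 76.6 CPM in fl/fl and at 1495 and 16.8 CPM in untreated libraries 1 and 2, which thus differed from each other.

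**Figure D1:**
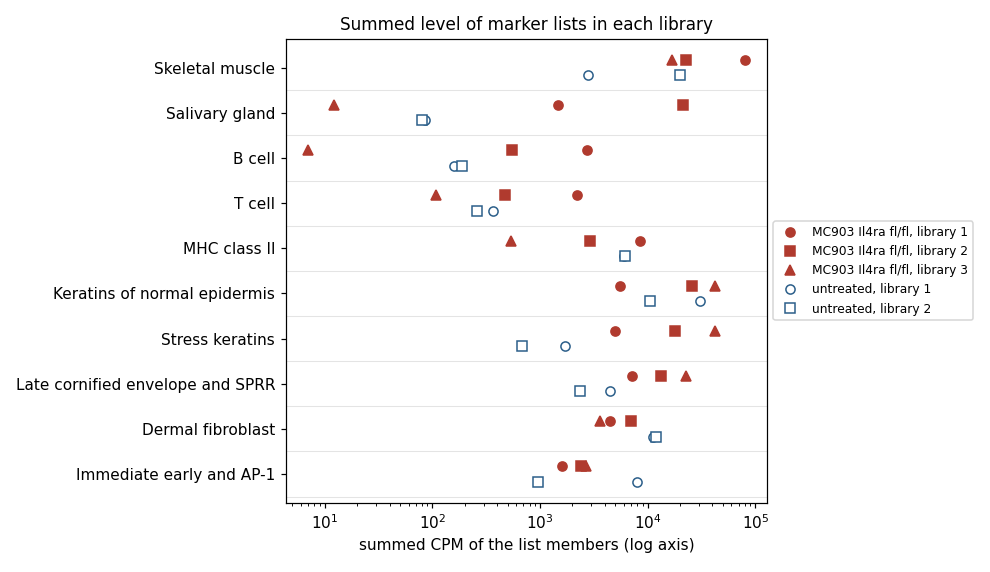
Summed CPM of the members of 10 marker lists (log axis) in each library, filled red for the 3 MC903 Il4ra fl/fl libraries and open blue for the 2 untreated libraries. Lymphocyte and muscle genes are highest in fl/fl library 1, salivary gland genes in fl/fl library 2 and stress keratins in fl/fl library 3, at 42272 CPM.

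After 6 days of MC903, 360 genes were called in fl/fl skin against untreated skin, 1.72% of those tested. Of these, 161 rose (0.769%) and 199 fell (0.95%), and none of the 360 overlapped between groups. The split depended on the untreated libraries: with these summed to 1 sample, 63 genes rose and 486 fell, and without untreated library 1, 133 rose and 603 fell. At an unadjusted p under 0.05 there were 3837 genes. Among the genes that rose, 111 were highest in fl/fl library 3, 27 in library 1 and 23 in library 2. Non-overlap alone was frequent: fl/fl libraries lay above both untreated libraries in 12.6% of all genes and below both in 15.4%. Counts of list members below are to be read beside these shares and those of the called genes. The calls draw on the spread of all 5 groups of the study, and with only the 5 libraries in the fit no gene was called by edgeR, though 1892 passed an unadjusted p of 0.05. DESeq2 called 2125 genes with all libraries. Untreated library 2 weighed most: without it 65 genes were called, 56 of them among the 360, whereas without untreated library 1 there were 736. Leaving out fl/fl library 1, 2 or 3 gave 342, 430 and 363. Whichever of the 5 libraries was left out, 46 genes kept their call, 22 higher and 24 lower.

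Cyp24a1, the gene of the enzyme that breaks vitamin D down, rose in all 3 fl/fl libraries. It stood at 1027, 1727 and 10560 CPM in the fl/fl libraries, against 0 and 0.0237 CPM, a single count, in untreated skin (adjusted p = 0.00016). The groups did not overlap, and fl/fl library 3 was the highest. S100g, which encodes the calcium-binding protein calbindin-D9k, was at 29.6, 13.4 and 32.2 CPM in fl/fl and at 0.478 and 0.736 CPM in untreated skin, 41.1-fold higher (log2 5.36 ± 0.94, adjusted p = 0.013). These were the 2 called among 14 genes of vitamin D action, whose median log2 change was 1.18 beside 0 over all genes. The receptor gene Vdr was at 15.7, 41.6 and 83.7 CPM in fl/fl and at 67.3 and 45.2 CPM in untreated skin, and these groups overlapped (log2 -0.26 ± 0.48). Without untreated library 2 the adjusted p of S100g was 0.098, while Cyp24a1 kept its call without any one library.

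The stefin A genes, which lie side by side on chromosome 16 and encode inhibitors of cysteine proteases such as cathepsins, were among the strongest increases. Their start regions are shown because the genes moved together. Each run is the 250 bases before the start site, 5′ to 3′ on the gene's strand, from RefSeq on build GRCm38.p6, an older build than the GRCm39 named in the submitters' processing notes. Capitals mark the longest stretch that all 5 windows share.
Stfa1, chr16:36276898-36277147, plus strand: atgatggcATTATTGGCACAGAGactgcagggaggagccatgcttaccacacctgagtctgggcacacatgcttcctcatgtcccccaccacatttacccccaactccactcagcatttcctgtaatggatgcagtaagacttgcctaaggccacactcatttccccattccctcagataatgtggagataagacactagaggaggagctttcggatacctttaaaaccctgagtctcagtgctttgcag
Stfa2, chr16:36408364-36408613, minus strand: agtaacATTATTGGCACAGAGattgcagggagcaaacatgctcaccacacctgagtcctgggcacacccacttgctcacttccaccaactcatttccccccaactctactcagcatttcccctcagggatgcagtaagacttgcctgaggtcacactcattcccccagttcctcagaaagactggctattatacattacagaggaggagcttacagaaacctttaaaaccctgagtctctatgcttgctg
Stfa3, chr16:36455393-36455642, minus strand: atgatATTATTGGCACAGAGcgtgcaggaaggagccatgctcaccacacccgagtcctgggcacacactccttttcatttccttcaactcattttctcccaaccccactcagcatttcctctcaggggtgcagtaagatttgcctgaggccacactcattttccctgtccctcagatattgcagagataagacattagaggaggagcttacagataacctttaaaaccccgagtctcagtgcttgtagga
Stfa2l1, chr16:36156561-36156810, plus strand: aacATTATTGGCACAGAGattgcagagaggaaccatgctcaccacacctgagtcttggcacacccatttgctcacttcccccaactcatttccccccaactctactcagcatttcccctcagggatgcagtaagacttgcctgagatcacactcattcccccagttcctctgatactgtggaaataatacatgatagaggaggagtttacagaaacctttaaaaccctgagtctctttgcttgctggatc
Cstdc5, chr16:36367571-36367820, minus strand: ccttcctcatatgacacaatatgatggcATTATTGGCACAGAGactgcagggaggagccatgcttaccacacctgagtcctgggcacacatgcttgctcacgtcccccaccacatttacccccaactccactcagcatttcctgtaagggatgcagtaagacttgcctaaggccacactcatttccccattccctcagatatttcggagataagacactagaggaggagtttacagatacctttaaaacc
These windows were 70.4% to 89.1% identical in pairs, and the closest pair was Stfa2 and Stfa2l1. The capitalised stretch of 15 bases, searched on either strand, occurred in 5 of 27025 promoter windows of this length, and those were the 5 shown. Genes so alike share reads, so how the estimated counts are split between copies is uncertain.

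Of the 9 stefin and cystatin genes tested, 7 rose and their median log2 change was 9.12 (8.33 with genes at 0 counts set to their bound), beside 0.769% of all genes that rose. Stfa3 was at 938, 709 and 897 CPM in fl/fl and at 4.06 and 1.19 CPM in untreated skin, 322-fold higher (log2 8.33 ± 0.73, adjusted p = 0.00016). Cstdc5 was at 2101, 1816 and 4742 CPM in fl/fl, against 5.42 and 0.688 CPM (log2 9.88 ± 1.07, adjusted p = 0.00083). In both genes the groups did not overlap, and Stfa3 was nearly level over the fl/fl libraries. Stfa2 was at 186, 165 and 669 CPM in fl/fl, against 0.337 and 0 CPM, and Stfa1 at 720, 378 and 1287 CPM, against 2.82 and 0 CPM. Stfa2l1, at 2.67, 5.74 and 19.2 CPM, and Cstdc6, at 8.68, 7.43 and 53.6 CPM in fl/fl, had 0 counts in both untreated libraries, so that their increases were at least 148-fold and 374-fold. Csta1, encoding stefin A1, was the one of the 7 with over 50 CPM in both untreated libraries, at 674, 486 and 3532 CPM in fl/fl, against 66.7 and 58 CPM (25.1-fold, adjusted p = 0.019). Its call ended without either untreated library (adjusted p = 0.059 without library 1 and 0.19 without library 2), while the other 6 kept theirs without any one library. Cst6, encoding cystatin E/M, was at 576, 530 and 1980 CPM in fl/fl and at 1380 and 675 CPM in untreated skin, overlapping groups. Csta2 and Csta3, neighbours in the same cluster that were chosen after their values were seen, rose too, with Csta3 at 28.7, 15.3 and 72.2 CPM in fl/fl, against 0.0532 and 0 CPM. These 2 calls ended without untreated library 2 (adjusted p = 0.08 and 0.054).

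The cornified envelope is the protein shell that replaces the membrane of dying keratinocytes, and its precursors are encoded together on chromosome 3 in mice. Of 34 late cornified envelope (LCE) and small proline-rich (SPRR) genes tested, 10 rose and 1 fell, with a median log2 change of 5.58 (5.3 with bounds) beside 0 over all genes. In 21 of the 34 the fl/fl libraries lay above untreated skin, beside 12.6% of all genes. The start regions of Lce3d and Lce3e are given because both genes had no counts in untreated skin. Capitals mark the longest stretch the 2 windows share.
Lce3d, chr3:92957140-92957389, plus strand: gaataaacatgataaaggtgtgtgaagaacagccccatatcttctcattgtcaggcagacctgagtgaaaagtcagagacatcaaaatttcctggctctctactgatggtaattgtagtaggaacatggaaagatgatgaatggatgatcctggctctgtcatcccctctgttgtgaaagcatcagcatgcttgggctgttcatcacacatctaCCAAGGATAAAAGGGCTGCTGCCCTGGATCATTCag
Lce3e, chr3:92966811-92967060, plus strand: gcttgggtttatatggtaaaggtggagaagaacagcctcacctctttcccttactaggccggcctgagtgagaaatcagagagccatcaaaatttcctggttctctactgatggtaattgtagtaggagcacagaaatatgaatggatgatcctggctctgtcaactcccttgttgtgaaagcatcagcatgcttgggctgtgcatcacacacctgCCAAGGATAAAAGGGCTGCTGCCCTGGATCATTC
The windows were 83.6% identical, and their common stretch of 34 bases was found in no other window of the 27025.

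All 6 Lce3 genes rose. Lce3d was at 15.1, 25.3 and 144 CPM in fl/fl, at least 990-fold above untreated skin (adjusted p = 0.0051), and Lce3e at 5.9, 11.3 and 40 CPM, at least 306-fold (adjusted p = 0.0045). Lce3a and Lce3b were likewise without counts in untreated skin, and Lce3c and Lce3f were 93.1-fold and 201-fold higher. The order over fl/fl libraries was the same in all 6, lowest in library 1 and highest in library 3. Among the SPRR genes, Sprr2a2 was at 5472, 10390 and 9827 CPM in fl/fl, against 146 and 5.55 CPM (113-fold, adjusted p = 0.011). Sprr1b was at 161, 470 and 1572 CPM in fl/fl, against 2.18 and 0.0237 CPM (655-fold, adjusted p = 0.013), and Sprr2h at 103, 155 and 1106 CPM, against 1.68 and 0.451 CPM (420-fold, adjusted p = 0.0055). The untreated libraries were not alike here: library 1 was the higher one for these 3 genes. Without untreated library 2, Lce3a, Lce3b, Lce3c, Lce3d, Lce3f, Sprr2g and Sprr2h lost their calls, with adjusted p between 0.053 and 0.23. With fl/fl library 3 as the only fl/fl library, a setting chosen after the data were seen, 23 members rose and 1 fell, beside 2.38% and 2.22% of all genes tested.

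Lce1m went against its family. It fell to 9.69, 27.1 and 51.2 CPM in fl/fl skin, against 2351 and 1515 CPM in untreated skin (log2 -6.04 ± 0.86, adjusted p = 0.0051), and kept its call without any one library. The other 13 tested Lce1 genes were not called, and the fl/fl range of Lce1b, 70.6 to 569 CPM, enclosed the untreated values of 274 and 126 CPM.

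Of the 4 keratins of wounded epidermis 3 rose. Krt16 was at 1189, 4955 and 13980 CPM in fl/fl, against 31 and 6.15 CPM in untreated skin (361-fold, log2 8.49 ± 1.19, adjusted p = 0.0045). Krt6a was at 1702, 5998 and 13570 CPM, against 290 and 69 CPM (39.5-fold, adjusted p = 0.016), and Krt6b at 1072, 4837 and 10410 CPM, against 8.7 and 0 CPM (adjusted p = 0.041). Each was lowest in fl/fl library 1, where muscle and lymphocyte genes were highest, and highest in fl/fl library 3. With a skeletal muscle score as covariate the log2 changes were 8.85 for Krt16, 5.74 for Krt6a and 11.26 for Krt6b. The part of other library content in these levels was not tested. Krt17 was at 985, 2200 and 4312 CPM in fl/fl and at 1379 and 600 CPM in untreated skin, overlapping and not called. Without untreated library 2 the adjusted p was 0.15 for Krt6a and 0.093 for Krt6b, and Krt6b also lost its call without fl/fl library 3 (0.067).

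Of 10 keratins of normal epidermis 1 fell. Krt15, a keratin of basal and hair follicle bulge cells, was at 280, 602 and 317 CPM in fl/fl, against 4741 and 1572 CPM in untreated skin (7.89-fold lower, log2 -2.98 ± 0.48, adjusted p = 0.0099), and kept its call without any one library. Krt77, a keratin of suprabasal cells and sweat ducts, was at 99.2, 732 and 135 CPM in fl/fl, against 8573 and 2992 CPM, groups that did not overlap but were not called (log2 -4.17 ± 1.16, adjusted p = 0.086). Krt14, the basal cell keratin, was at 3003, 11770 and 28550 CPM in fl/fl, against 1967 and 853 CPM (log2 3.36 ± 0.83, adjusted p = 0.057).

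**Figure D2:**
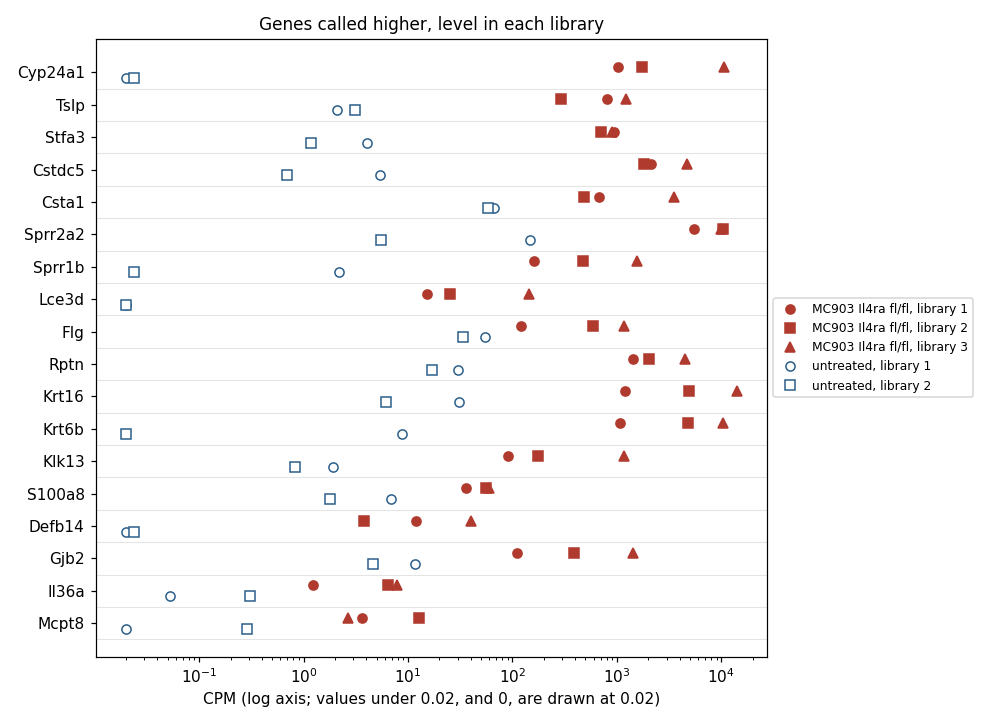
CPM (log axis) of 18 genes that rose, in the 3 MC903 Il4ra fl/fl libraries (filled red, above) and the 2 untreated libraries (open blue, below). In each gene the fl/fl points lie right of the untreated points; for Krt16 they run from 1189 to 13980 CPM, against 6.15 and 31 CPM.

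Fused S100 proteins of the filaggrin family and their crosslinking transglutaminases form the scaffold of the stratum corneum. Of 13 such genes 3 rose and 1 fell. Rptn, encoding repetin, was at 1417, 2040 and 4490 CPM in fl/fl, against 30.1 and 16.9 CPM (113-fold, log2 6.82 ± 0.72, adjusted p = 0.00077). Flg, encoding filaggrin, the precursor of natural moisturising factor, was at 120, 590 and 1173 CPM, against 54.3 and 33.8 CPM (14.2-fold, adjusted p = 0.032). Its close relative Flg2 moved the opposite way, to 40.7, 50 and 43.4 CPM in fl/fl, against 410 and 554 CPM in untreated skin (10.8-fold lower, log2 -3.43 ± 0.45, adjusted p = 0.0032). Flg2 was nearly level over the fl/fl libraries, while Flg was not. Tchh, encoding trichohyalin of the inner root sheath, belongs to the same family and was at 1370, 1069 and 2800 CPM in fl/fl, against 11.7 and 6.53 CPM (192-fold, log2 7.58 ± 0.66, adjusted p = 0.00016). Of the 21 hair follicle and hair shaft genes, Tchh was the only one called, and their median log2 change was 0.01. Rptn, Flg2 and Tchh kept their calls without any one library; Flg lost its call without fl/fl library 3 (adjusted p = 0.053) and without untreated library 1 (0.067) or 2 (0.27), and Tchhl1, the third that rose, without the same libraries (0.059, 0.13 and 0.26). Without the MAR1 libraries, or with the untreated libraries summed, 1 of the 13 genes rose and 1 fell.

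Epidermal proteases and their inhibitors rose in part. Kallikreins are serine proteases that cut the junctions between corneocytes, and SPINK proteins inhibit them. Of 19 such genes, 5 rose (Klk6, Klk8, Klk9, Klk13 and Spink12), and 11 lay above untreated skin in every fl/fl library. Over all genes these shares were 0.769% and 12.6%. Klk13 was at 90.3, 178 and 1161 CPM in fl/fl, against 1.93 and 0.831 CPM (342-fold, adjusted p = 0.0099), and Klk6 at 270, 603 and 2836 CPM, against 39.9 and 9.37 CPM (50.2-fold, adjusted p = 0.024). Spink12 was at 1.5, 2.83 and 28.7 CPM in fl/fl and without any count in the untreated libraries (at least 177-fold, adjusted p = 0.017). All 5 were highest in fl/fl library 3. All 5 lost their calls without untreated library 2, with adjusted p between 0.096 and 0.36, and Klk8 also without untreated library 1 (0.064) and fl/fl library 3 (0.077). Without the MAR1 libraries, or with the untreated libraries summed, 2 genes of the list rose.

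Among 15 genes of antimicrobial proteins 4 rose. Defb14, a beta-defensin, was at 12, 3.77 and 39.8 CPM in fl/fl, against a single count in untreated skin (adjusted p = 0.004). Slpi, the secretory leukocyte protease inhibitor, was at 64.7, 97 and 764 CPM, against 2.85 and 0.617 CPM (176-fold, adjusted p = 0.014). S100a8 and S100a9, whose proteins pair as calprotectin, were at 36.2, 56.2 and 60.3 CPM and at 38.6, 74.6 and 51.7 CPM in fl/fl, against 6.82 and 1.8 CPM and against 7.18 and 1.61 CPM in untreated skin (11.8-fold and 12.5-fold, adjusted p = 0.044 and 0.042). These 2 genes also stand on the neutrophil list, and they were the 2 called of its 12 members. Defb14 kept its call without any one library. Without untreated library 2 the adjusted p of Slpi was 0.12, and those of S100a8 and S100a9 were 0.3 and 0.28; both S100 genes also lost their calls without fl/fl library 2 (0.06 and 0.063) or 3 (0.072 and 0.064), and S100a8 without library 1 (0.052). With the untreated libraries summed, 2 of the 15 rose.

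Gap junction channels of the epidermis changed strongly in 2 of 11 connexin and pannexin genes. Gjb2, connexin 26, was at 111, 392 and 1415 CPM in fl/fl, against 11.7 and 4.58 CPM (78.4-fold, log2 6.29 ± 1.01, adjusted p = 0.0099). Gjb6, connexin 30, its neighbour in the genome, was at 50.9, 115 and 514 CPM, against 2.48 and 2.02 CPM (101-fold, log2 6.65 ± 0.96, adjusted p = 0.0051). Elovl3, which elongates fatty acids for skin lipids, was the single called gene of 17 barrier lipid enzymes, at 249, 242 and 581 CPM, against 24.6 and 19.2 CPM (16.3-fold, adjusted p = 0.0062). All 3 lost their calls without untreated library 2 (adjusted p = 0.099, 0.076 and 0.093).

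Genes of cell division were higher by smaller factors. Of 22 tested, 7 were called, all higher, beside 0.769% of all genes that rose. In 19 every fl/fl library lay above untreated skin, beside 12.6% of all genes. The median log2 change was 1.5, beside 0 over all genes. Birc5, encoding survivin, was at 40.3, 35 and 28.4 CPM in fl/fl, against 8.1 and 7.64 CPM (4.39-fold, log2 2.13 ± 0.35, adjusted p = 0.0099). Cdk1 was at 33.1, 27.6 and 39.6 CPM, against 9.82 and 7.9 CPM (3.77-fold, adjusted p = 0.02), and Ccne1, encoding cyclin E1, at 12.8, 11.8 and 15.2 CPM, against 3.17 and 2.56 CPM (4.63-fold, adjusted p = 0.018). Mki67, the gene of the Ki-67 antigen, was at 70.6, 61.5 and 32.7 CPM, against 16.3 and 18.2 CPM (3.17-fold, adjusted p = 0.032). Mki67 was lowest in fl/fl library 3, where B and T cell genes were lowest as well, at 6.94 and 109 CPM in sum. The part of lymphocytes in these counts was not tested. With the untreated libraries summed to 1 sample, all 7 lost their calls (adjusted p = 0.089 to 0.23). None of the 7 kept its call without untreated library 2 (adjusted p = 0.11 to 0.3), and Mcm5, Mki67 and Ccna2 each also lost it without at least 1 fl/fl library (0.053 to 0.078). The adjusted p without untreated library 1 was 0.12 for Mki67 and 0.063 for Ccna2.

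**Figure D3:**
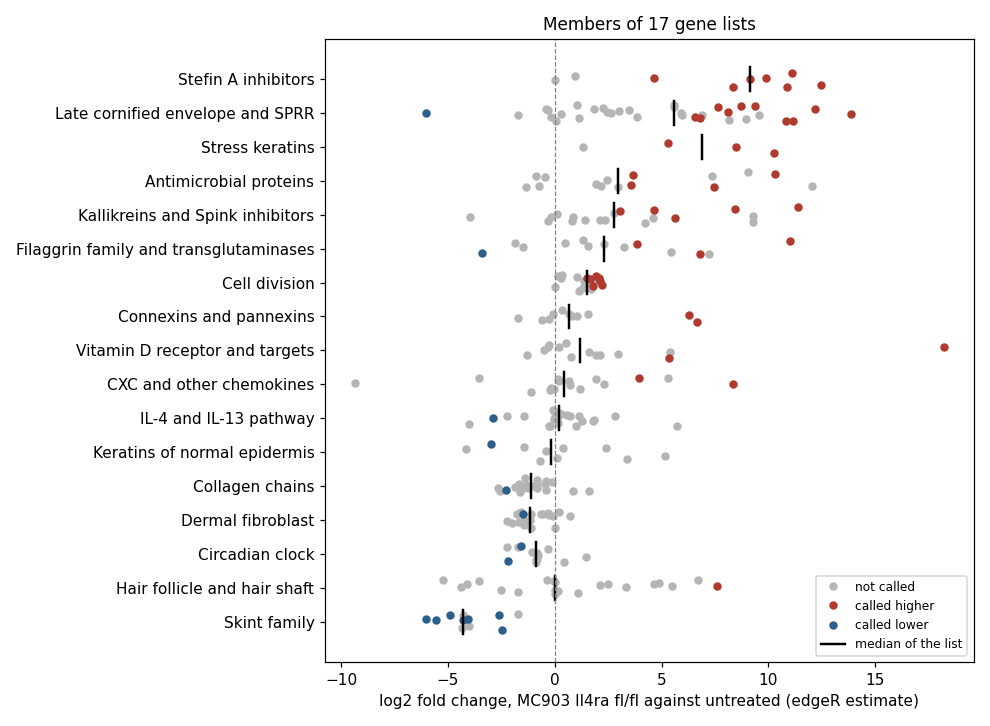
Log2 fold change of each tested member of 17 gene lists, MC903 Il4ra fl/fl against untreated skin, with members that rose in red, members that fell in blue and the list median as a bar. Stefin A genes have the highest median, 9.12, and Skint genes the lowest, -4.29.

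Among 8 alarmin cytokine and receptor genes only Tslp was called. It stood at 808, 293 and 1213 CPM in fl/fl, against 2.07 and 3.08 CPM in untreated skin (299-fold, log2 8.22 ± 1.13, adjusted p = 0.0045). Its lowest fl/fl library was library 2, where salivary gland genes were highest. Il33, another epithelial alarmin, was at 50.9, 109 and 133 CPM in fl/fl and at 57 and 24.4 CPM in untreated skin, overlapping. In the IL-20 family, Il24 was at 1.99, 3.88 and 3.75 CPM in fl/fl and without any count in the untreated libraries (at least 51.6-fold, adjusted p = 0.016). Il36a, a keratinocyte cytokine of the IL-1 superfamily, was at 1.23, 6.5 and 7.77 CPM in fl/fl, against 0.0532 and 0.308 CPM (28.7-fold, adjusted p = 0.038). With untreated library 2 left out, the adjusted p was 0.054 for Tslp, 0.099 for Il24 and 0.095 for Il36a, and Il36a also lost its call without untreated library 1 (0.13) or fl/fl library 2 (0.054) or 3 (0.064).

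Chemokine genes moved in both directions. Of 16 CXC and other chemokines 2 rose. Cxcl13, which draws B cells, was at 126, 32.6 and 256 CPM in fl/fl, against 6.13 and 11.9 CPM (15.3-fold, adjusted p = 0.026), and was highest in library 3, where B cell genes were lowest. Cxcl5, which draws neutrophils, was at 7.48, 66.8 and 14.5 CPM, against 0.16 and 0 CPM (adjusted p = 0.032). Of 20 CC chemokines 1 fell: Ccl27a, made by keratinocytes and known to attract skin-homing T cells, was at 21.8, 23 and 12.1 CPM in fl/fl, against 123 and 102 CPM in untreated skin (5.93-fold lower, log2 -2.57 ± 0.41, adjusted p = 0.0088), and kept its call without any one library. Its near-identical copy Ccl27b, chosen after its values were seen, was at 16, 19.8 and 8.75 CPM, against 94.4 and 105 CPM, and the 2 cannot be counted apart with certainty; its adjusted p was 0.074 without untreated library 2. Cxcl13 lost its call without either untreated library (0.098 and 0.13) and without fl/fl library 1 (0.052) or 3 (0.053), and Cxcl5 without untreated library 2 (0.22) or fl/fl library 3 (0.05).

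Of 22 tested genes of the IL-4 and IL-13 pathway, 1 fell and their median log2 change was 0.19. Il4 was at 0.846, 0.335 and 0.295 CPM in fl/fl and at 1.54 and 1.19 CPM in untreated skin, and Il13 was under 1.1 CPM in every library. Il13ra2, the decoy receptor of IL-13 and a target of the pathway, was at 8.41, 8.08 and 7.68 CPM in fl/fl, against 2.18 and 2.28 CPM (log2 1.85 ± 0.48, adjusted p = 0.067). Chil3, a chitinase-like gene of alternatively activated macrophages, was at 3.93, 4.2 and 7.95 CPM, against 0.886 and 0.641 CPM (adjusted p = 0.056). Both sets of values were separate but not called. Ear2, a ribonuclease gene of eosinophils and some macrophages, fell to 15.5, 10.3 and 2.1 CPM in fl/fl, against 58.7 and 81.6 CPM (7.54-fold lower, adjusted p = 0.044). That call ended without fl/fl library 2 (0.079) or untreated library 2 (0.22).

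Of the 12 basophil genes Mcpt8, the mast cell protease 8 that marks mouse basophils, was the one that rose. It was at 3.6, 12.9 and 2.69 CPM in fl/fl, against 0 and 0.285 CPM in untreated skin (46.2-fold, log2 5.53 ± 1.12, adjusted p = 0.026), and kept its call without any one library. Mcpt8 lost its call without the MAR1 libraries (adjusted p = 0.064). Cd200r3, also carried by basophils and mast cells, was at 3.44, 3.06 and 2.72 CPM in fl/fl, inside the untreated range of 1.4 and 8.5 CPM. Fcer1a, the alpha chain of the IgE receptor, was at 6.52, 12.3 and 22.7 CPM, against 2.18 and 0 CPM (log2 3.65 ± 1.4, adjusted p = 0.19). Il6 was at 4.39, 6.18 and 1.62 CPM, against 0.727 and 0.759 CPM (adjusted p = 0.054), and Hdc, which makes histamine, at 15.8, 50.5 and 58.6 CPM, against 14.6 and 3.75 CPM (adjusted p = 0.11). Prss34 was under 1.4 CPM in every library. The remaining members, Cyp11a1, Ms4a2, Itga2, Cd69 and Gata2, were not called, with log2 changes from -0.26 to 2.51.

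Lymphocyte genes were called in places, but their levels followed single fl/fl libraries. Of 13 B cell genes 2 rose: Fcmr, an IgM receptor gene, at 87.3, 22.6 and 1.71 CPM in fl/fl, and Pou2af1, a B cell coactivator, at 48.4, 10.7 and 2.1 CPM, both without counts in untreated skin (at least 599-fold and 328-fold, adjusted p = 0.012 and 0.0099). The B cell sum of fl/fl library 3, 6.94 CPM, was below both untreated libraries. Izumo1r, the folate receptor 4 gene of regulatory T cells, rose too, at 50, 6.03 and 0.118 CPM, against 0 in untreated skin, which leaves library 3 at the level of single counts. It is not on the T cell list, where 1 of 21 genes was called. That gene, Gata3, fell to 40.6, 57 and 22.1 CPM, against 203 and 97.3 CPM (log2 -1.91 ± 0.45, adjusted p = 0.047). The Gata3 call ended without either untreated library (0.24 and 0.071) and without fl/fl library 1 (0.061) or 3 (0.064). The calls of Fcmr and Pou2af1 ended without untreated library 2 (0.083 and 0.075), that of Izumo1r without either untreated library (0.11 and 0.2) or without fl/fl library 1 (0.06). With fl/fl library 3 as the only fl/fl library, 9 of 11 MHC class II genes and 11 of 22 interferon-stimulated genes fell, beside 2.22% of all genes tested in that setting, while in the fit of all libraries neither list had a called member (0 and 3 members at an unadjusted p under 0.05; none by DESeq2). The MHC class II sum was 8546, 2943 and 538 CPM in fl/fl, against 6048 and 6193 CPM in untreated skin, so the direction depended on the fl/fl library.

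The Skint genes lie in a cluster on chromosome 4 and encode immunoglobulin-like membrane proteins of the epidermis. The founding member Skint1 is known in mice for selecting the gamma delta T cells of the epidermis. The start regions of Skint5 and Skint6 are shown because these 2 fell together. They come from RefSeq on build GRCm38.p6 as above, with the longest shared stretch in capitals.
Skint5, chr4:113999504-113999753, minus strand: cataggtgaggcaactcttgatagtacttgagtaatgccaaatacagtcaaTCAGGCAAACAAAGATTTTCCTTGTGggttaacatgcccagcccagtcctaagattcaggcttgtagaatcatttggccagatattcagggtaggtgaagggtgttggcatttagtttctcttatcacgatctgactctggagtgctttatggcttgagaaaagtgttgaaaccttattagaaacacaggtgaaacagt
Skint6, chr4:113286974-113287223, minus strand: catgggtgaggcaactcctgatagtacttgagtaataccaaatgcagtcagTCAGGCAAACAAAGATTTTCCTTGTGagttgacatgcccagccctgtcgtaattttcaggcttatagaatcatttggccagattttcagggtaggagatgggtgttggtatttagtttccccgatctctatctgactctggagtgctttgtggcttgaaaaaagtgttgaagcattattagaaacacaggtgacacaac
The windows were 88.8% identical, and the shared stretch, 26 bases long, lay in no other window of the 27025. In bulk skin, fewer cells of a type and less RNA per cell cannot be told apart, here or for any marker below.

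All 11 Skint genes were lower in every fl/fl library than in either untreated library, and 7 fell, beside 0.95% of all genes that fell and 15.4% whose groups were separate in this direction. The median log2 change was -4.29. Skint5 was at 0.601, 0.469 and 1.51 CPM in fl/fl, against 53.8 and 59 CPM in untreated skin (65.7-fold lower, log2 -6.04 ± 0.71, adjusted p = 0.0016). Skint6 was at 0.409, 1.56 and 1.89 CPM, against 41.6 and 36.6 CPM (30.3-fold lower, adjusted p = 0.021), and Skint10 at 0.519, 4.17 and 7.54 CPM, against 95.3 and 67.9 CPM (20-fold lower, adjusted p = 0.029). In fl/fl library 3, where the stress keratins summed to 42272 CPM, Skint5 was at 1.51 CPM. Skint3, the least reduced of those called, was at 8.79, 26.1 and 11.9 CPM, against 87 and 85.1 CPM (5.52-fold lower, adjusted p = 0.027). Skint1 itself was at 1.31, 3.71 and 5.44 CPM, against 14.2 and 8.33 CPM, and not called (adjusted p = 0.13). Without the MAR1 libraries, a further group of the study that shares in the estimate of spread, only Skint5 and Skint6 were called, and the other 5 had adjusted p between 0.056 and 0.06. Skint5 alone kept its call without any one library. The other 6 lost theirs without untreated library 2 (adjusted p = 0.076 to 0.25), Skint7 and Skint10 also without fl/fl library 2 (0.063 and 0.065), Skint3 without fl/fl library 3 (0.051), and Skint11 without untreated library 1 (0.07) or fl/fl library 1 (0.067) or 3 (0.058).

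A Langerhans cell marker and a keratinocyte growth factor gene fell as well. Cd207, encoding langerin of Langerhans cells, was at 5.79, 4.8 and 1.15 CPM in fl/fl, against 36.1 and 29.6 CPM in untreated skin (8.39-fold lower, log2 -3.07 ± 0.62, adjusted p = 0.025), the one called of 16 dendritic and Langerhans cell genes. Il34, which encodes the cytokine that maintains Langerhans cells and which was chosen after its values were seen, was at 23.1, 23.1 and 6.95 CPM in fl/fl, against 87.7 and 56.6 CPM (4.07-fold lower, adjusted p = 0.028). Both were lowest in fl/fl library 3. Btc, encoding the EGF receptor ligand betacellulin, was at 2.29, 3.19 and 6.29 CPM, against 80 and 43.8 CPM (15.8-fold lower, adjusted p = 0.048). Leaving out untreated library 2, the adjusted p was 0.084 for Cd207, 0.069 for Il34 and 0.11 for Btc; Il34 also lost its call without untreated library 1 (0.11), and Btc without any one of the 5 libraries (0.065 to 0.11).

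Genes known from hair follicle stem cells and Wnt signalling were among the decreases. Apart from Krt15 and Wnt3 they were picked after their values were seen, so they carry no test as a group. Krt19, a keratin of the bulge, was at 2.81, 1.83 and 0.561 CPM in fl/fl, against 145 and 15.7 CPM (46.1-fold lower, adjusted p = 0.0055). Lrp4, a Wnt co-receptor that restrains the pathway, was at 3.49, 10.1 and 6.24 CPM, against 53.1 and 42.4 CPM (7.21-fold lower, adjusted p = 0.0067). Apcdd1, a Wnt inhibitor expressed in hair follicles, was at 23.8, 57.1 and 34.1 CPM, against 195 and 223 CPM (5.46-fold lower, adjusted p = 0.0055). The receptor gene Lgr6, a marker of epidermal stem cells, was 6.84-fold lower, the follicle transcription factor gene Lhx2 3.86-fold and Tnfrsf19 5.88-fold. Wnt3, the one called of 19 Notch, Wnt and hedgehog genes, was at 0.983, 7.21 and 1.92 CPM, against 45 and 14.8 CPM (8.84-fold lower, adjusted p = 0.041). Lrp4 and Apcdd1 kept their calls without any one library. Krt19 lost its call without untreated library 1 (0.079), Tnfrsf19 without untreated library 2 (0.061), Lgr6 without either (0.052 and 0.078), and Wnt3 and Lhx2 without either untreated library and without at least 2 of the fl/fl libraries (0.052 to 0.22).

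**Figure D4:**
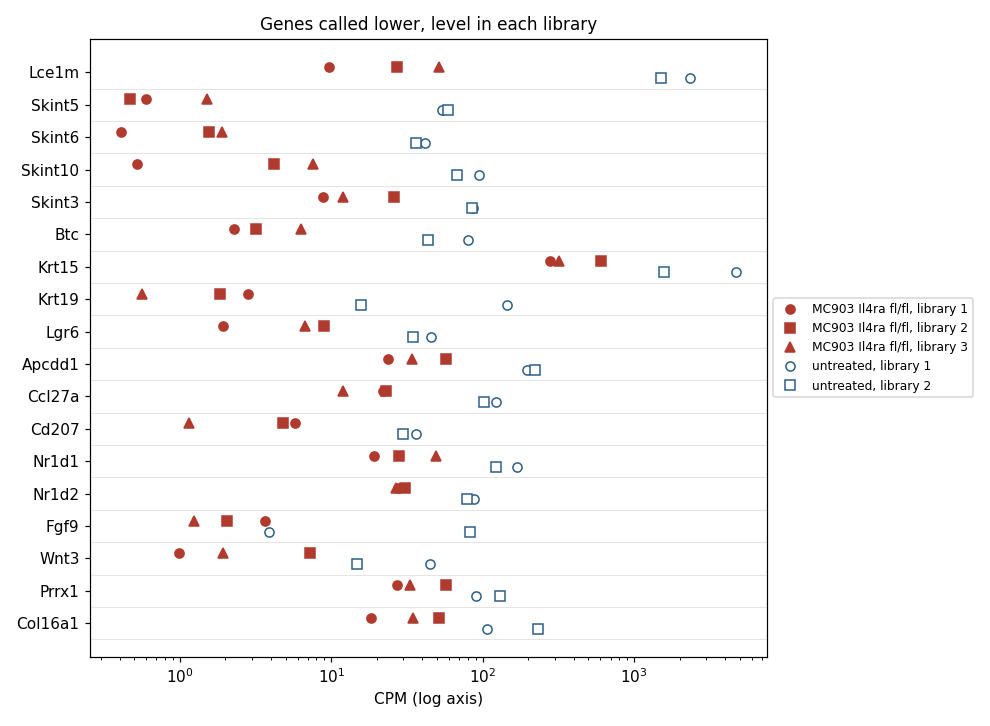
CPM (log axis) of 18 genes that fell, in the 3 MC903 Il4ra fl/fl libraries (filled red, above) and the 2 untreated libraries (open blue, below). The fl/fl points lie left of the untreated points in each gene; for Skint5 they run from 0.469 to 1.51 CPM, against 53.8 and 59 CPM.

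Genes of the fibroblast and collagen lists changed by smaller factors and were seldom called. Of 21 fibroblast genes 14 lay below untreated skin in every fl/fl library, with a median log2 change of -1.14, and of 20 collagen genes 11 did, with -1.12. Over all genes 15.4% lay below in this way and 0.95% fell. One of each fell: Prrx1, a transcription factor gene of dermal mesenchyme, at 27.2, 57.2 and 33 CPM in fl/fl, against 90.9 and 130 CPM (2.82-fold lower, log2 -1.5 ± 0.33, adjusted p = 0.036), and Col16a1 at 18.3, 51.2 and 34.9 CPM, against 106 and 234 CPM (4.88-fold lower, log2 -2.29 ± 0.45, adjusted p = 0.021). Col1a1, the main fibrillar collagen chain of skin, was at 279, 1158 and 276 CPM, against 2179 and 5095 CPM, and not called (adjusted p = 0.084), and Dcn, encoding decorin, at 704, 1013 and 768 CPM, against 1855 and 2716 CPM (0.07). Skeletal muscle genes, at 80612, 22675 and 16822 CPM in fl/fl, against 2779 and 19989 CPM, differed between these libraries too. With a skeletal muscle score as covariate the log2 changes were -1.51 for Prrx1, -2.33 for Col16a1, -2.74 for Col1a1 and -1.48 for Dcn. The main fit gave -2.67 for Col1a1 and -1.46 for Dcn. The cause of the lower values was not tested. Of the matrix proteases, Mmp13, collagenase 3, was at 33.3, 41.7 and 293 CPM in fl/fl, against 0.443 and 1.02 CPM (168-fold, log2 7.4 ± 1.25, adjusted p = 0.013), and Mmp27 fell to 3.74, 3.48 and 5.94 CPM, against 14.6 and 34.9 CPM (5.64-fold lower, adjusted p = 0.041). Tnc, encoding the wound matrix protein tenascin C, was at 82.6, 234 and 127 CPM, against 8.13 and 4.2 CPM (23.9-fold, log2 4.58 ± 0.79, adjusted p = 0.013). In the absence of untreated library 2, all 5 lost their calls (adjusted p = 0.099 to 0.45), Prrx1 also without fl/fl library 1 (0.055) or 3 (0.052) and Mmp27 without fl/fl library 1 (0.077) or 2 (0.089).

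Genes of secreted proteins that were picked after their values were seen fell in all 3 fl/fl libraries. Cpxm2, a carboxypeptidase-like gene, was at 4.15, 8.71 and 4.58 CPM in fl/fl, against 61.4 and 48.7 CPM (9.45-fold lower, adjusted p = 0.0032). Ecm2, a matrix protein gene, was at 8.98, 8.55 and 3.25 CPM, against 49.5 and 78 CPM (9.2-fold lower, adjusted p = 0.0055). The semaphorin genes Sema3c and Sema3d, which guide axons, were at 18.9, 41.9 and 27.8 CPM and at 6.88, 7.68 and 3.4 CPM, against 161 and 104 CPM and against 53.3 and 48.4 CPM in untreated skin (adjusted p = 0.0055 and 0.0051). Ptn, the growth factor pleiotrophin, was at 29.2, 50.9 and 14.2 CPM, against 212 and 145 CPM (5.68-fold lower, adjusted p = 0.013). All 5 kept their calls without any one library.

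Of 14 circadian clock genes 2 fell, the nuclear receptor repressors Nr1d1 and Nr1d2. Nr1d1 was at 19.3, 28 and 49.2 CPM in fl/fl, against 170 and 122 CPM (4.55-fold lower, adjusted p = 0.041), and Nr1d2 at 27.7, 30.6 and 26.7 CPM, against 88.3 and 79.4 CPM (2.96-fold lower, log2 -1.57 ± 0.31, adjusted p = 0.022). Clock genes are known to vary with the hour of sampling, which is not given in the sources used here. Cry1 stood higher, at 16.9, 16.4 and 22.8 CPM, against 8.03 and 5.43 CPM, and was not called (0.073). Both calls ended without either untreated library (Nr1d1 0.11 and 0.1, Nr1d2 0.054 and 0.11), and that of Nr1d1 also without fl/fl library 1 (0.072) or 2 (0.09). Fgf9, the one called of 12 fibroblast growth factor genes, rested on untreated library 2: it was at 3.63, 2.05 and 1.24 CPM in fl/fl and at 3.9 and 82.3 CPM in untreated skin, and its adjusted p was 0.78 without that library. It was also lost without fl/fl library 1 (0.065), 2 (0.086) or 3 (0.11).

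The largest increases outside these lists were led by Akr1d1, a steroid 5-beta-reductase gene, at 30.5, 66.9 and 579 CPM in fl/fl and without counts in untreated skin (at least 3625-fold, adjusted p = 0.0095). Ecel1, an endothelin-converting enzyme-like gene, was at 19.8, 15.9 and 84.5 CPM, also against 0 (at least 644-fold, adjusted p = 0.0019). Myl7, known as an atrial myosin light chain, was at 5.38, 4 and 107 CPM, against 0 (at least 624-fold, adjusted p = 0.021), and Scgb2b27, a secretoglobin gene, at 3.96, 24.6 and 9.22 CPM (at least 202-fold, adjusted p = 0.0055). The remaining largest decreases were of genes at low levels: Akr1c19 had no counts in fl/fl skin, against 2.07 and 5.55 CPM (at least 48.2-fold lower, adjusted p = 0.018), Slc23a1, a vitamin C transporter gene, was at 0, 0 and 0.148 CPM, against 3.21 and 1.83 CPM, and Gprin2, at 0.519, 2.92 and 1.62 CPM, against 33.4 and 19.4 CPM (15.6-fold lower). Serpina3h was at 1.67, 2.79 and 2.72 CPM, against 30.3 and 32.5 CPM (13.1-fold lower, adjusted p = 0.0067), and Cpz, carboxypeptidase Z, at 2.87, 4.33 and 1.51 CPM, against 42.2 and 113 CPM (26.7-fold lower, adjusted p = 0.0099). With untreated library 2 left out, all of these except Ecel1 lost their calls (adjusted p = 0.054 to 0.14). Without untreated library 1 the adjusted p of Myl7 was 0.056 and that of Gprin2 0.095. Slc23a1 and Gprin2 also lost their calls without fl/fl library 1 (0.053 and 0.075), Gprin2 without fl/fl library 3 (0.075), and Slc23a1 without fl/fl library 2 (0.054).

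Further genes that rose were chosen after their values were seen. Serpina9, a serine protease inhibitor gene, was at 73.6, 130 and 510 CPM in fl/fl, against 0.532 and 0.237 CPM (603-fold, log2 9.24 ± 0.96, adjusted p = 0.00077), and Wfdc12, of the same function, at 100, 246 and 362 CPM, against 0.851 and 0.451 CPM (358-fold, log2 8.48 ± 0.94, adjusted p = 0.0011). Both kept their calls without any one library. Saa3, a serum amyloid A gene of the acute phase, was at 128, 163 and 276 CPM, against 1.47 and 1.04 CPM (149-fold, adjusted p = 0.0055). Lipid and retinoid carriers rose, with Fabp5 at 2403, 3778 and 11670 CPM, against 319 and 252 CPM (20.8-fold, adjusted p = 0.014), Rbp2 at 86.6, 176 and 424 CPM, against 10 and 5.34 CPM (29.8-fold, adjusted p = 0.0045), and Crabp2 at 171, 266 and 1316 CPM, against 70.3 and 49.2 CPM (9.78-fold, adjusted p = 0.043). Leaving out untreated library 2, these 4 had adjusted p of 0.08, 0.15, 0.075 and 0.32, and Crabp2 also lost its call without untreated library 1 (0.097) or fl/fl library 3 (0.054).

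Promoter windows were searched for motifs on both strands, and matches are a description only. The AP-1 motif TGANTCA was in 12 of the 120 windows available for genes that rose (10%) and in 12 of 145 for genes that fell (8.28%), beside 6.87% of all 27025 windows. The STAT motif was in 5.83% of windows of genes that rose and 2.76% of those that fell, beside 5.86% of all. For TATAAA these shares were 15% and 11.7%, beside 13%, and for CACGTG 5% and 8.97%, beside 6.05%. The vitamin D response element was in none of either set and in 0.215% of all windows. No window was searched for Cyp24a1, Cstdc6, Krt6a, Krt6b, Krt16, Defb14, Krt15 and Apcdd1, among others.

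Some of the decreases were of genes at very low levels. Of the 199 that fell, 44 had no counts in any fl/fl library, and their untreated means had a median of 0.606 CPM. Olfactory and vomeronasal receptor genes, known from sensory epithelia of the nose, took 0.0767%, 0.0479% and 0.0495% of counts in fl/fl and 0.0486% and 0.277% in untreated libraries. Of the 44 genes, 7 were such receptor genes (15.9%), beside 3.09% of all genes tested. The 44 were picked for having no fl/fl counts, which favours genes at low levels. A share among tested genes of similar level was not computed, so no excess can be read from these values. Untreated library 2, with the higher receptor share of the untreated pair, was the higher untreated library in 39 of the 44, in 109 of the 199 and in 49.6% of all genes tested. The part of receptor reads in the calls was not tested.

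The isotype group, which had the same course of MC903 in wild-type mice with injections, was set beside fl/fl skin by the test of fl/fl minus isotype. Since untreated skin cancels out, this is the test of whether the changes against untreated skin differ. It called 1094 genes, 5.22% of those tested, 262 higher (1.25%) and 832 lower (3.97%) in fl/fl. Of the 360 genes called against untreated skin, 80 were also called here, beside 5.22% of all genes tested. Both tests share the fl/fl libraries. Among leading genes of the response several were not called here. Cyp24a1 was at 4510, 4633 and 3722 CPM with isotype, a log2 difference of 0.05 ± 0.66 to the fl/fl libraries. The log2 difference was 0.13 ± 0.44 for Stfa3, 0.4 ± 0.71 for Krt16, -0.62 ± 0.47 for Rptn, 1.01 ± 0.68 for Tslp and 1.65 ± 0.75 for Sprr2a2. None of these 6 was called, which does not show that the groups were alike. Skint5 was 1.87 ± 0.62 higher on the log2 scale in fl/fl than with isotype (adjusted p = 0.089). Flg2 differed: it was at 40.7, 50 and 43.4 CPM in fl/fl and at 101, 193 and 222 CPM with isotype (log2 -1.94 ± 0.4, adjusted p = 0.033), a call kept in 1 of the 6 settings that leave out a library of either group. Members of the B cell list were called higher in fl/fl in 8 of 13 cases, of the T cell list in 6 of 21, of the skeletal muscle list in 6 of 18 and of the red blood cell list in 5 of 6. Olfactory and vomeronasal receptor genes took 0.438%, 0.269% and 0.4% of counts in isotype libraries, against 0.0767%, 0.0479% and 0.0495% in fl/fl. The part of this difference in the calls was not tested. The calls of this comparison were unstable: without isotype library 1, 2 or 3 they numbered 6, 55 and 6, and without fl/fl library 1, 2 or 3 they were 77, 0 and 3176. Although edgeR called 0 genes without fl/fl library 2, 4213 passed an unadjusted p of 0.05 there, and DESeq2, run with all libraries only, called 3353.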

How the data were processed

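The authors deposited 1 table of estimated counts per gene for 14 skin RNA libraries in 5 groups, as the file header and its values show. Per the submitters' processing notes, Salmon 1.2.1, DESeq2 1.44.0 and the build GRCm39 were used; their roles are not given in the sources used here. Per the labels' protocols, RNA came from about 20 frozen sections of neck skin of 20 µm each and was made into poly(A) libraries.

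The table held 35328 entries, of which 1 without a gene name was left out. Estimated counts were rounded and tested with edgeR 4.0.16 (robust quasi-likelihood fit, TMM scaling, filterByExpr, R 4.3.3) with 5 group means over all 14 libraries; 20939 genes were tested, the common dispersion was 0.361 and 9 residual degrees of freedom remained. All p-values are two-sided, adjusted by Benjamini-Hochberg over all genes tested. They measure the spread between these libraries, which may be technical for the untreated pair. Estimated counts carry no molecular identifiers, so floors of 3 counts cover counting error only. On simulated data of fl/fl against untreated skin over 20365 genes, the test recovered 1.49% of changes of 2-fold, 19.4% of 4-fold and 74.2% of 16-fold, with 2 false calls. Between replicate libraries, chi-square per degree of freedom was 484.9 to 984.9 in fl/fl, 304.4 in untreated and 53.51 to 79.57 in isotype skin. The number of false calls under such unequal spread was not tested.

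The members and the gene lists were chosen with earlier results of these data known. Genes were named by rule: in each direction, the called genes with the biggest log2 changes (15 at most), averaging 1 CPM or more and not overlapping; at most 4 members of each list, by p; and Il4ra, Cyp24a1, Tslp and the basophil genes; others are said to be chosen after their values were seen. Alternatives were RLE scaling, other filters, fewer groups, the untreated libraries summed, a replicate block, a muscle covariate, each library left out, and DESeq2 1.42.0. Some results are not reported here.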

Additional observations from a re-analysis of the deposited data

Results flagged for a closer look

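Changes after MC903 in fl/fl skin were compared with those in isotype skin through the test of fl/fl minus isotype, by edgeR with adjustment over all genes. Of the 170 genes followed one by one through the alternatives, 15 differed. Fcer2a, Ccl22, Sprr4, Col7a1 and Car2 among them are not described above. Each kept its call in 1 of the 6 settings that leave out a fl/fl or isotype library. Genes higher in fl/fl were Bpifa2 (log2 difference 17.35, adjusted p = 0.035), Fcer2a (9.68, adjusted p = 0.036), Izumo1r (6.38, adjusted p = 0.041), Fcmr (5.65, adjusted p = 0.035), Pou2af1 (4.29, adjusted p = 0.04) and Ccl22 (3.75, adjusted p = 0.044). Bpifa2 marks salivary gland, and Fcmr, Pou2af1 and Fcer2a are genes of B cells; the sums of both lists differed widely among the fl/fl libraries.

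Genes lower in fl/fl were Slc23a1 (log2 difference -4.72, adjusted p = 0.038), Sprr4 (-4.41, adjusted p = 0.039), Fgf9 (-4.28, adjusted p = 0.035), Chil3 (-2.63, adjusted p = 0.035), Cd200r3 (-2.59, adjusted p = 0.035), Col7a1 (-2.05, adjusted p = 0.035), Flg2 (-1.94, adjusted p = 0.033), Car2 (-1.75, adjusted p = 0.047) and Col16a1 (-1.67, adjusted p = 0.04).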

How the results depend on the processing

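The 360 calls of fl/fl against untreated skin stayed within 1.5 times under RLE scaling, no filter, a stricter filter, a muscle covariate and, chosen after the data were seen, a mean of at least 10 CPM. They numbered 0 with only the groups compared (1892 at an unadjusted p under 0.05), 217 without the MAR1 libraries, 549 with the untreated libraries summed and 2125 by DESeq2. With single libraries left out they ranged between 65 and 736, and with fl/fl libraries 1 and 2 left out together, also chosen after the data were seen, they were 982; the lone library is then assumed to vary like the other groups. Deviations of same-numbered fl/fl and untreated libraries from their group means correlated at -0.344 and -0.0985. The 2 untreated libraries deviate by equal and opposite amounts, so these values are not independent. They cannot decide whether replicate numbers pair the samples. With the replicate block 224 genes were called. The 1094 calls of fl/fl against isotype skin kept within 1.5 times under RLE scaling and both filters. They numbered 455 with only the groups compared, 3 without the MAR1 libraries, 175 with the replicate block, 695 with the muscle covariate, 259 at a mean of at least 10 CPM and 3353 by DESeq2, and between 0 and 3176 with single libraries left out. The cause of these shifts was not tested. Of 2679 values of single genes under alternatives, 419 lost a call. In 29 the sign changed, each in a gene without a call in the main comparison and under that alternative. With fl/fl library 3 alone these log2 changes were 0.54 (Vdr), -0.86 (Ccl22), -0.9 (Cd69), -3.56 (Il13), 0.3 (Il13ra1), -1.66 (Il2rg) and -6.66 (Fcer2a). With single libraries left out the ranges were -1.12 to 0.08 for Vdr, -0.77 to 0.28 for Rxra, -0.57 to 6.12 for Cstdc4, -1.01 to 0.61 for Cst6, -1.01 to 0.55 for Krt5, -1.47 to 1.12 for Cd200r3, -1.13 to 1.19 for Il13, -0.79 to 0.1 for Il13ra1, -0.11 to 0.27 for Stat6, -0.91 to 1.72 for Arg1 and -3.82 to 2.68 for Fos. With the untreated libraries summed they were -0.36 (Cst6), -0.15 (Il13) and -0.12 (Stat6). Cst6 was at 0 without a filter, -0.02 with only the groups compared, -0.52 with the replicate block and -0.06 at a mean of at least 10 CPM. RLE scaling moved the median of all genes by 0.02 (log2).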
